A study of Mus musculus with 20 samples.

Results

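The Myc and Max network was followed through its 7 genes Myc, Mycn, Mycl, Max, Mxd4, Mxi1 and Mga, chosen by symbol from the platform annotation. They are read by 19 of the 45101 probe sets of the array. Each gene was tested through its brightest probe set, and values of other probe sets are given for Mycn, Mycl, Mxd4 and Mga. Myc and Max are each read by a single probe set. All 7 genes were among the 14010 genes tested, and 17 of their 19 probe sets passed the filter on dim signal, a log2 level of 3.95 in at least 1 group. Mycn and Mga each have 1 probe set below it in all 10 groups.

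Myc, Mycn and Mycl encode transcription factors that bind DNA only as a pair with Max, at E boxes, and raise the expression of genes for ribosome production, metabolism and growth. Max also pairs with Mxd4 and Mxi1, which recruit corepressors to the same sites, so that members compete for 1 partner. Mga, a large protein with both a T-box and a Max-pairing domain, joins Max in the Polycomb complex PRC1.6, which keeps meiotic and other germ line genes silent in embryonic stem cells. In the mouse, primordial germ cells arise from the epiblast under Blimp1 (gene Prdm1), Prdm14 and Tfap2c.

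The 20 arrays cover 5 mouse lines at 2 stages with 2 replicates each. All lines derive from BVSCR26rtTA embryonic stem cells, labelled male, of strain C57BL/6;129, which carry Blimp1-mVenus, stella-ECFP and the doxycycline-dependent activator rtTA at Rosa26. Beside the parental line there is 1 clone each with Avi-Blimp1 (the Blimp1 line, #2-4), 3xFLAG-Prdm14 (the Prdm14 line, #7-109), V5-Tfap2c (the Tfap2c line, #8-2) and all 3 factors (the 3-factor line, #3-3), each behind a doxycycline-responsive promoter, so that factor and clone cannot be told apart. Stem cells kept in 2i+LIF without feeders became epiblast-like cells (EpiLCs) over 36 hours, and these were then aggregated for 24 hours in GK15 medium with 1.5 μg/ml doxycycline (day 1), the parental line included. Aggregation, its medium, doxycycline and the further 24 hours came together, so their parts in a change between stages cannot be told apart. Below, a change with aggregation means a change over this whole step. The labels name no added cytokine. Nothing states that replicates came from separate cultures, so p-values measure the spread between these samples. The values are whole-aggregate RNA, in which fewer cells of a type and less RNA per cell cannot be told apart.

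Across all probe sets, replicates correlated with r between 0.966 and 0.976. The Y-linked gene Uty read between 8.02 and 8.65 in the parental, Tfap2c and 3-factor lines, but between 4.06 and 4.66 in the Prdm14 line and between 2.19 and 2.94 in the Blimp1 line, at both stages, although all lines are labelled male. Y-linked Eif2s3y had EpiLC means of 9.485 in the parental, 7.9 in the Tfap2c and 7.26 in the 3-factor line. It was at 4.61 in Prdm14 and 1.68 in Blimp1 EpiLCs. Y-linked Kdm5d was dim, with group means between 3.715 and 4.47, and did not separate the lines. Tfap2c itself read 5.80 and 6.08 in Tfap2c line aggregates against 6.29 and 6.38 in parental ones, so the array gave no sign of that transgene; whether the probe set can read it was not tested. The summed linear signal of 5 early germ cell markers was between 558 and 611 in parental aggregates, 473 and 552 in the Tfap2c line, 2124 and 2845 in the Blimp1 line, 5252 and 5831 in the Prdm14 line and 9548 and 9854 in the 3-factor line. The 5 were Prdm1, Dppa3, Tfap2c, Dnd1 and Ifitm3, so the sum includes the genes of the added factors Blimp1 and Tfap2c. The others had parental and 3-factor means of 6.1 and 11.46 (Dppa3), 6.74 and 7.45 (Dnd1) and 8.21 and 11.675 (Ifitm3). The summed signal of 6 epiblast-like markers was between 22738 and 24012 in parental and between 13805 and 14429 in 3-factor aggregates, with none of the 6 below the filter level in any group. These 6 did not move together. Between the same groups the mean of Sox2 was higher (10.705, then 12.545) and that of Pou5f1 level (12.49 and 12.495). Otx2, Fgf5, Pou3f1 and Dnmt3b were lower. The part of these shifts in the results was not tested.

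The promoters of the 3 members that differed most in the Prdm14 and 3-factor aggregates beside Myc are shown from 250 bases before to 30 bases after the RefSeq start (GRCm38.p6), 5′ to 3′ on the gene's strand. Capitals mark matches, on either strand, to the E box CACGTG, the E2F motif TTTGGCGC or the AP-2 motif GCCNNNGGC.
Mycn (chr12:12941807-12942086, minus strand): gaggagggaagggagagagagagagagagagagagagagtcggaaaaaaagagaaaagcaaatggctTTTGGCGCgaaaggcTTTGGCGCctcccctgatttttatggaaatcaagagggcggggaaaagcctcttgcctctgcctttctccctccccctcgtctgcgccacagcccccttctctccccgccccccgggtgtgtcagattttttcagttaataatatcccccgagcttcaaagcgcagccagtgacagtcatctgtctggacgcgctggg
Max (chr12:76962219-76962498, minus strand): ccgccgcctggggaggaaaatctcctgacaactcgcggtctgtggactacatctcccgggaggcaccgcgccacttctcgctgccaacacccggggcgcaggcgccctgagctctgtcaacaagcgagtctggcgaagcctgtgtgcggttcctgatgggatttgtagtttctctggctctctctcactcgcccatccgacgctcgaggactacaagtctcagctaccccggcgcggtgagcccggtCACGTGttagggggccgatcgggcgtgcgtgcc
Mycl (chr4:122995681-122995960, plus strand): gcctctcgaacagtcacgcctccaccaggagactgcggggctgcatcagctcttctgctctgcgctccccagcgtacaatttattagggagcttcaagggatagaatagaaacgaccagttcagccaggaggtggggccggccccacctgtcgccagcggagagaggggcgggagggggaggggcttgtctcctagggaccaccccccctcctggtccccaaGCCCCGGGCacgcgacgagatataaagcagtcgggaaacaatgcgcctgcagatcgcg
The Mycn window holds TTTGGCGC at 2 places, starting at positions -183 and -168 from the start. This motif occurs in 0.4688% of the 32851 mouse windows of this length. The Max window holds an E box across its start site, a sequence that Max-containing pairs bind and that occurs in 6.794% of windows. The Mycl window holds 1 AP-2 match, the motif family bound by Tfap2c, as do 15.43% of windows. The Blimp1 motif AGNGAAAG (8.118% of windows) and the Prdm14 motif GGTCTCTAA (0.2496%) matched none of the 8 windows of the 6 members with an entry, which describes these windows only. Myc had no entry, so its promoter was not searched for any motif.

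**Figure D1:**
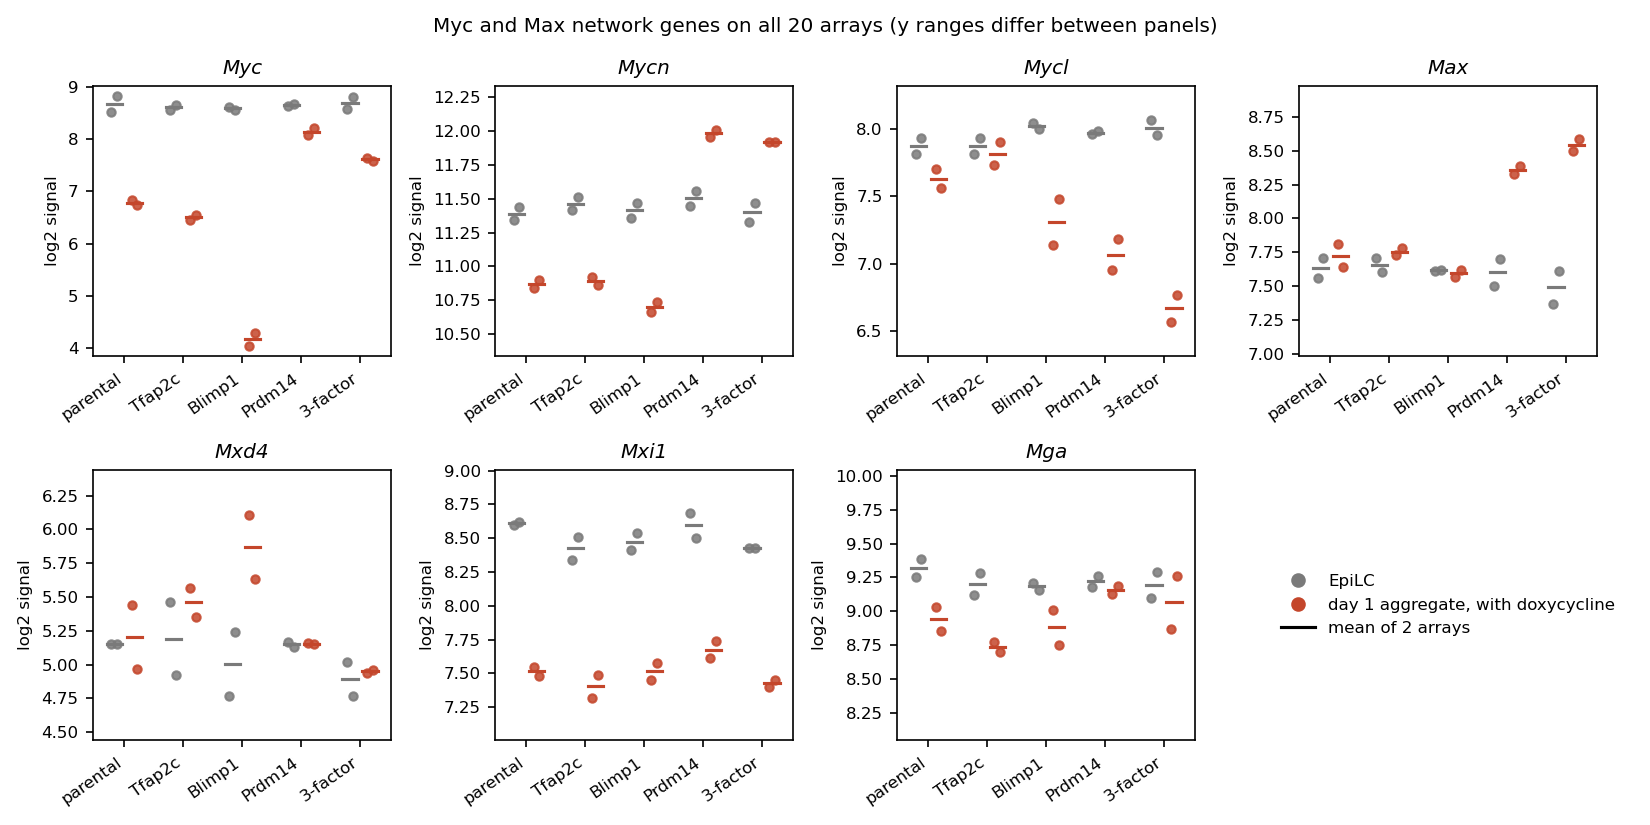
Log2 signal of each network gene (y axis, range differing between panels) by line (x axis), at its brightest probe set, with grey points for EpiLCs, red points for day 1 aggregates and bars for the mean of 2 arrays. EpiLC values of Myc lie together between 8.52 and 8.81, and day 1 values spread from 4.05 in the Blimp1 line to 8.21 in the Prdm14 line.

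Before aggregation the network did not separate the lines. In EpiLCs, 0 of 7 genes passed the test (limma, adjusted p under 0.05, at any size) in any of the 4 lines against the parental line, and 0 of 7 did so at an unadjusted p under 0.05. The background was 0.0357% of all genes for Tfap2c, 0.0571% for the 3-factor line, 0.0642% for Prdm14 and 0.236% for Blimp1. The smallest adjusted p of any member was 0.63, in the Blimp1 line. Differences below are called where they pass the test and reach a log2 change of 1.

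Myc, the founding member, was high in EpiLCs of every line and fell with aggregation. In the parental line it read 8.52 and 8.81 in EpiLCs and 6.84 and 6.73 on day 1, a called fall with a log2 change of -1.88 (adjusted p from limma 2.62e-07). The Tfap2c line went from 8.56 and 8.65 to 6.46 and 6.54. The Blimp1 line went from 8.61 and 8.56 to 4.05 and 4.29, the lowest Myc signals on any array. The other 2 lines kept more of it. Myc was 8.62 and 8.67 in Prdm14 EpiLCs and 8.07 and 8.21 in their aggregates, a change of -0.51 that passed the test but not the size limit (limma adjusted p 0.00343). In the 3-factor line it was 8.58 and 8.80 and then 7.64 and 7.58, a called change of -1.08 that was -0.97 without the second EpiLC array. The 5 day 1 groups thus stood in the order Prdm14, 3-factor, parental, Tfap2c and Blimp1 with no overlap between neighbours, while the 5 EpiLC groups overlapped.

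Against parental aggregates, Myc was 6.13-fold lower in the Blimp1 line (log2 change -2.62 ± 0.11 SE, limma adjusted p 5.03e-08) and 2.56-fold higher in the Prdm14 line (1.35 ± 0.11, limma adjusted p 2.67e-06). In the 3-factor line it was higher by 0.83 ± 0.11 (limma adjusted p 1.22e-04), under the size limit for a call. The Tfap2c line differed by -0.29 ± 0.11, which did not pass (limma adjusted p 0.674). Between the single-factor lines the gap was 15.7-fold, Prdm14 over Blimp1 (3.97 ± 0.11, limma adjusted p 5.89e-10). The 3-factor line lay 0.53 below the Prdm14 line (limma adjusted p 0.0133) and 3.44 above the Blimp1 line (limma adjusted p 1.36e-09). Its Myc was above the sum of the 3 single-line differences by 2.37 ± 0.22 on the log2 scale (limma adjusted p 2.45e-04). Myc was the only 1 of the 7 members called in that test of additivity, against 0.892% of all genes.

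**Figure D2:**
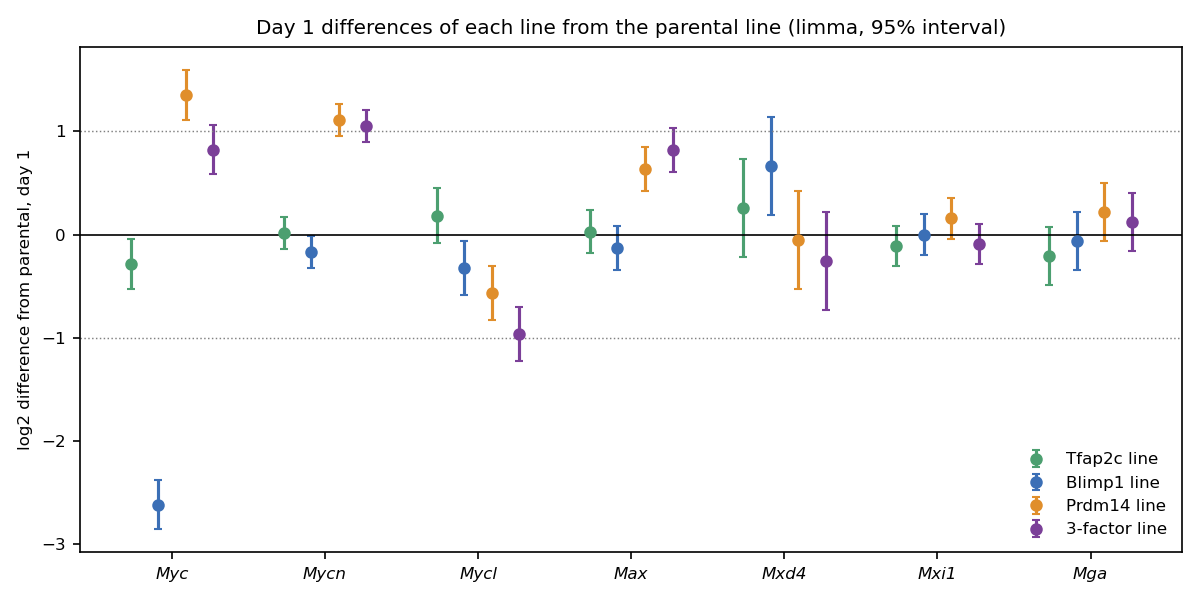
Log2 difference from parental aggregates on day 1 (y axis) for each network gene (x axis) in 4 lines, with points for the limma estimate, bars for the 95% interval and dotted lines at a log2 change of 1 in either direction. Myc lies at -2.62 in the Blimp1 line and 1.35 in the Prdm14 line, and Mycn at 1.05 and 1.11 in the 3-factor and Prdm14 lines.

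Mycn, the paralog that predominates in many embryonic progenitors, changed direction between lines. Parental Mycn was 11.34 and 11.44 in EpiLCs and 10.84 and 10.90 on day 1, a fall of 0.52. The Tfap2c line (11.42 and 11.51, then 10.92 and 10.86) and the Blimp1 line (11.36 and 11.47, then 10.66 and 10.74) also went down. The Prdm14 line instead rose from 11.45 and 11.56 to 11.96 and 12.01, and the 3-factor line from 11.33 and 11.47 to 11.92 on both arrays. All 5 changes with stage passed the test and none reached the size limit. Against parental aggregates Mycn was 2.17-fold higher in the Prdm14 line (1.11 ± 0.07, limma adjusted p 3.87e-07) and 2.07-fold higher in the 3-factor line (1.05 ± 0.07, limma adjusted p 4.05e-07). The Blimp1 line was at -0.17 ± 0.07 and the Tfap2c line at 0.02 ± 0.07, neither past the test. The second Mycn probe set above the filter gave 1.42 in the 3-factor line and 1.46 in the Prdm14 line. Unlike Myc, Mycn in the 3-factor line differed from the sum of the single-line differences by only 0.08 ± 0.14, with a 95% interval from -0.23 to 0.40 (limma adjusted p 0.842).

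Mycl, the third Myc paralog, went the other way. It read 7.81 and 7.93 in parental EpiLCs and 7.70 and 7.56 in parental aggregates, against 6.57 and 6.77 in 3-factor aggregates and 6.95 and 7.18 in Prdm14 aggregates. Blimp1 aggregates were at 7.14 and 7.48 and Tfap2c aggregates at 7.73 and 7.90, so the 3-factor group lay below all others, the Prdm14 group overlapped the Blimp1 group, and these 3 groups lay below every EpiLC array, the lowest of which was 7.81, as parental aggregates also did. The differences from parental aggregates were -0.96 ± 0.12 in the 3-factor line (limma adjusted p 7.34e-05) and -0.57 ± 0.12 in the Prdm14 line (limma adjusted p 0.00448), both under the size limit. From EpiLC to aggregate, Mycl fell by 1.33 in the 3-factor line, a called change that with its probe sets averaged was -0.83 and not called. Without the second parental or the second 3-factor array of day 1, the 3-factor difference on day 1 was -1.03 or -1.06 and was called.

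Max, the shared partner, was nearly level in 3 lines and higher in 2. Its 2 values on day 1 were 7.81 and 7.64 in the parental line, 7.73 and 7.78 in the Tfap2c line and 7.57 and 7.62 in the Blimp1 line. They were 8.33 and 8.39 in the Prdm14 line and 8.50 and 8.59 in the 3-factor line, above every EpiLC array, the highest of which was 7.71. Max was higher than in parental aggregates by 0.82 ± 0.10 in the 3-factor line (limma adjusted p 4.49e-05) and 0.64 ± 0.10 in the Prdm14 line (limma adjusted p 4.30e-04), under the size limit in both. The 3-factor rise from EpiLC to aggregate was 1.05, a called change, but 0.94 without the first 3-factor EpiLC array and then under the size limit.

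The antagonists behaved otherwise. Mxi1 fell with aggregation in every line, by 1.09 in the parental line (8.60 and 8.62 to 7.55 and 7.48), 1.02 in the Tfap2c line and 1.00 in the 3-factor line, all called. The Blimp1 and Prdm14 lines, at -0.96 and -0.92, passed the test below the size limit. These calls sit at the limit: leaving out 1 array moved the Tfap2c fall to -0.94 (the second EpiLC or first day 1 array), the 3-factor fall to -0.98 (the first day 1 array), the Blimp1 fall to -1.02 (the first EpiLC or second day 1 array) and the Prdm14 fall to -1.01 (the second EpiLC array). On day 1 its 10 values ran from 7.32 to 7.74 and no line passed the test against the parental line. Mxd4 was dim, between 4.77 and 6.11 at its brightest probe set. Its highest values were 6.11 and 5.63, in Blimp1 aggregates, against 5.44 and 4.97 in parental ones, a difference of 0.66 ± 0.22 that missed the limit (limma adjusted p 0.0567), while the rise from Blimp1 EpiLCs (4.77 and 5.24) was 0.86 (limma adjusted p 0.00663), and 1.10 without the second Blimp1 array of either stage. Another Mxd4 probe set, above the filter level in 2 of 10 groups, read 5.10 and 5.38 in Blimp1 aggregates. It was under that level as a group mean in parental aggregates (4.26 and 2.91) and in 3-factor ones (1.41 and 2.50). No size is therefore given for its differences. A further Mxd4 probe set past the filter did not rise. Its group means were 4.39 in Blimp1 EpiLCs, 4.36 in Blimp1 aggregates and 4.455 in parental aggregates. The last such probe set had group means of 4.035, 4.465 and 4.155 in the same order. The Mxd4 promoter holds an E box from position -219 to -214, as shown here with the match in capitals.
Mxd4 (chr5:34187907-34187946, minus strand): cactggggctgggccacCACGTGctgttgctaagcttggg

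Mga varied least, with a span of 0.58 between its lowest and highest group means. Its aggregates read 9.03 and 8.85 in the parental line, 9.13 and 9.19 in the Prdm14 line and 8.87 and 9.26 in the 3-factor line, the last overlapping both others. No line passed the test against the parental one on day 1 at this probe set. A dimmer Mga probe set was higher in the Prdm14 line by 0.77 (limma adjusted p 0.0258). Another Mga probe set read between 6.04 and 6.64 in parental and between 6.87 and 7.62 in 3-factor aggregates. Prdm14 aggregates, between 6.42 and 7.35 at that probe set, overlapped both. The falls from EpiLC to aggregate passed the test in the parental line (-0.38, limma adjusted p 0.0387) and the Tfap2c line (-0.46, limma adjusted p 0.0153). The Myc span of 4.52 was wider than that of 99.7% of the genes tested.

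Counted over the 7 genes, 2 differed by a call from parental aggregates in Prdm14 aggregates, where 5.38% of all genes did. The count was 1 in 3-factor aggregates (6.62%), 1 in Blimp1 aggregates (2.6%) and 0 in Tfap2c aggregates (0.0286%), where Myc alone had an unadjusted p under 0.05. At any size the test was passed by 4 of 7 in the 3-factor line (27.5% of all genes), 4 with Prdm14 (23.9%), 1 with Blimp1 (17.2%) and 0 with Tfap2c (0.0857%). Between lines, 2 of 7, Myc and Mycn, were called for Prdm14 against Blimp1 aggregates (6.55%) and the same 2 for 3-factor against Blimp1 aggregates (6.47%), and Myc alone passed at any size between 3-factor and Prdm14 aggregates (6.17%).

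With aggregation, 4 of 7 were called in the 3-factor line (10.6% of all genes), 2 in the parental line (6.59%), 2 in the Tfap2c line (6.12%), 1 in the Blimp1 line (9.72%) and 0 in the Prdm14 line (8.06%). At any size the counts were 5 (41%), 4 (34.5%), 4 (32.8%), 5 (42.1%) and 5 (35%) in the same order. The change itself differed from the parental change by a call for 2 genes in the 3-factor line (6.95%), 1 in the Blimp1 line (2.4%) and 2 in the Prdm14 line (4.55%).

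Genes listed as direct targets of Myc proteins in ribosome production were lower by small amounts in the Blimp1 aggregates. Of 24 such genes, 16 passed the test downward in that line (background 8.79%) and 0 upward (8.42%), and 0 reached the size limit. The median difference was -0.25, against 0.03 over all genes tested, and the values ran from -0.57 to 0. Nucleolin (Ncl), which acts in the processing of ribosomal RNA, was at -0.18 (limma adjusted p 0.0389), whereas Npm1 was at 0 and the methyltransferase gene Fbl at -0.03, neither past the test. In the Prdm14 and 3-factor lines the medians were 0.04 and 0.01. Compared directly, 17 of the 24 were higher in Prdm14 than in Blimp1 aggregates (background 10.9%), 0 of them by a log2 change of 1. That count was 11 with probe sets averaged, 6 on the compared arrays alone and 0 under a test against a log2 change of 0.5. The Blimp1 count rested on the settings: it was 9 with arrays centred on their medians, between 5 and 9 with 1 array left out, 8 with probe sets averaged, and 0 both on the compared arrays alone and under the test against 0.5.

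**Figure D3:**
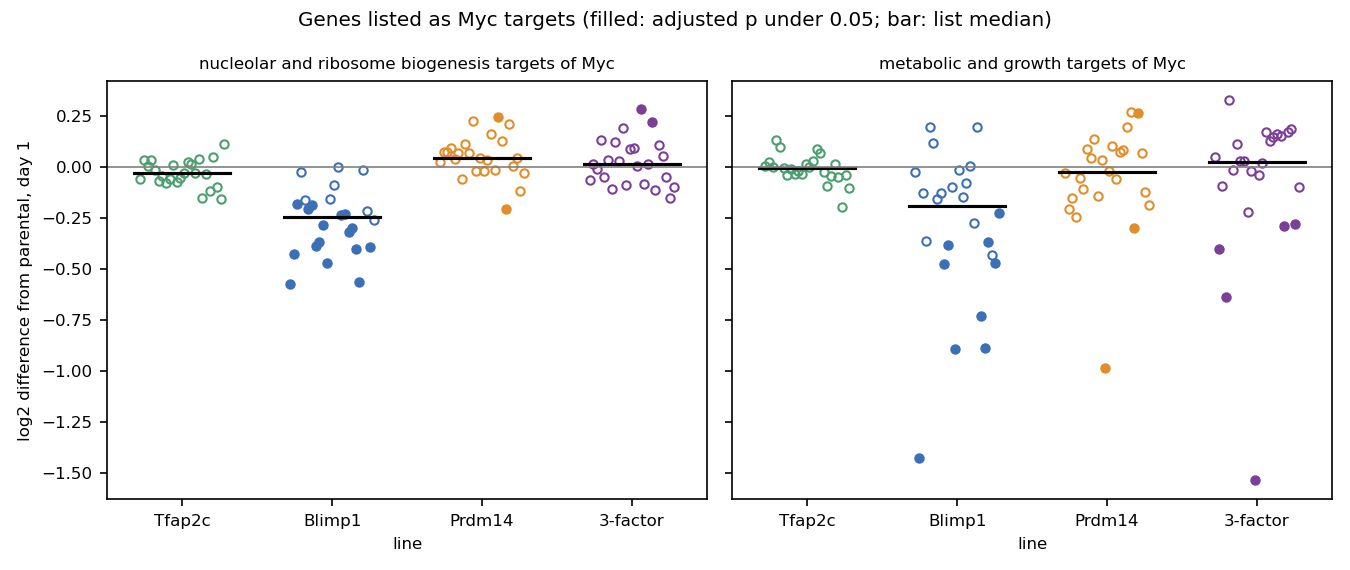
Log2 difference from parental aggregates on day 1 (y axis) of genes listed as Myc targets in ribosome production (left) and in metabolism and growth (right), by line (x axis), with 1 point a gene, filled where the limma adjusted p is under 0.05, and a bar at the list median. The ribosome genes of the Blimp1 line lie between -0.57 and 0, while the metabolic list is led downward by Bcat1 in the Blimp1 line and Ldha in the 3-factor line.

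The metabolic and growth targets were more mixed. In the Blimp1 line 9 of 24 passed the test downward (8.79% of all genes) and 0 upward (8.42%), with a median of -0.19. The 9 became 1 on the compared arrays alone and 3 under a test against a log2 change of 0.5. Bcat1, a branched-chain amino acid transaminase gene, was at 9.32 and 9.33 there against 10.67 and 10.83 in parental aggregates, a called difference of -1.42. Ldha, the lactate dehydrogenase gene of glycolysis, was lower in all 3 lines where germ cell markers were higher. It read 12.89 and 12.99 in parental aggregates, 12.01 and 12.08 in the Blimp1 line, 11.92 and 11.99 in the Prdm14 line and 11.36 and 11.45 in the 3-factor line, the last a called difference of -1.53 (calls downward, 3.85% of all genes). Shmt2, which makes glycine from serine in mitochondria, was higher in Prdm14 than in Blimp1 aggregates by 1.00. Of 24 metabolic genes, 5 passed downward and 0 upward in the 3-factor line (background 15% and 12.4%), and 2 downward and 1 upward in the Prdm14 line (15% and 8.84%).

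Among 7 tested genes that Myc is known to repress, the stress gene Gadd45a was higher in the Prdm14 line (1.13) and the 3-factor line (1.33). Ndrg1 was higher by 3.31 and 2.77. These 2 of the 7 were called up in both lines, against 2.18% and 2.78% of all genes. Ndrg1 was noisy: the difference in its change with stage between the Tfap2c and parental lines had an SE of 0.72, against 0.18 for Gadd45a. The cell cycle inhibitor gene Cdkn1a was lower by a called -1.04 in the 3-factor line (calls downward, 3.85% of all genes). In the Blimp1 line 1 of the 7 passed the test upward and 1 downward, with 0 called, shares near the 8.42% and 8.79% of all genes.

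Germ line genes on which Mga, Max and PRC1.6 are known to act were tested in the same way, and 15 were bright enough. They passed the test downward with aggregation in 10 cases of 15 in the parental line (12.6% of all genes), 10 in the Tfap2c line (12.3%), 11 in the Blimp1 line (18%), 6 with Prdm14 (15.8%) and 7 in the 3-factor line (17.8%). The only cases upward were 1 of 15 in the parental line and 1 of 15 with Prdm14. In either direction, 34.5% and 35% of all genes passed in these lines. These promoters are shown because the E box recurs among them. CACGTG occurs in 14 of 23 windows (60.87%, against 6.794% of all windows) and in 11 of the 18 listed genes with an entry. The genes were listed for their known regulation by Max-containing complexes, so this share describes the list and is not a result of the arrays. The stretches below have 40 bases with the E box in capitals.
Mael (chr1:166238945-166238984, minus strand): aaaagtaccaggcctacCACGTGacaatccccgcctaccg
Stk31 (chr6:49395467-49395506, plus strand): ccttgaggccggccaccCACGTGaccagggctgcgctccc
Sycp1 (chr3:102936172-102936211, minus strand): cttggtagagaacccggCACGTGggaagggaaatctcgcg
Stag3 (chr5:138280322-138280361, plus strand): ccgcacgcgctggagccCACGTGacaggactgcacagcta
Hormad1 (chr3:95559603-95559642, plus strand): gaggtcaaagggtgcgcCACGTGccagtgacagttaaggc
Of 15 tested genes, 8 were called down from EpiLC to aggregate in the parental line (background 2.62%), 9 in Tfap2c cells (2.55%) and 9 in Blimp1 cells (3.94%). With Prdm14, 3 were called down (3.73%) and Sycp3, a synaptonemal complex gene, was called up (4.33%), and in the 3-factor line 4 were called down (4.88%). The list medians were -1.13, -1.5, -1.05, -0.47 and -0.31 in that order.

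Hormad1, a meiotic chromosome axis gene, read 8.27 and 8.45 in parental EpiLCs and 4.64 and 4.82 in parental aggregates, a change of -3.63. Its aggregates were at 6.10 and 6.59 in the Prdm14 line and 6.06 and 6.26 in the 3-factor line, above all aggregates of the other 3 lines, the highest of which was 5.40. Dazl, an RNA-binding protein gene of germ cells, was at 7.09 and 7.19 in parental EpiLCs and at 5.62 and 5.63 on day 1, but at 6.62 and 6.74 in 3-factor aggregates. Stk31 was at 4.84 and 4.87 in parental and at 5.83 and 6.01 in 3-factor aggregates. Against parental aggregates, these 3 genes were called up in the 3-factor line (1.43 for Hormad1, 1.06 for Stk31 and 1.05 for Dazl, background 2.78%), Hormad1 alone in the Prdm14 line (1.61, background 2.18%), and Meioc and Sycp3 were called down in the Blimp1 line (-1.07 and -1.03, background 1.2%). Of the 3 calls in the 3-factor line, 1 was left with probe sets averaged and 1 under the test against a log2 change of 0.5. Split by the motif, 5 of 10 tested genes with an E box and 2 of 4 without were called down in the parental line, with medians of -1.02 and -1.19.

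**Figure D4:**
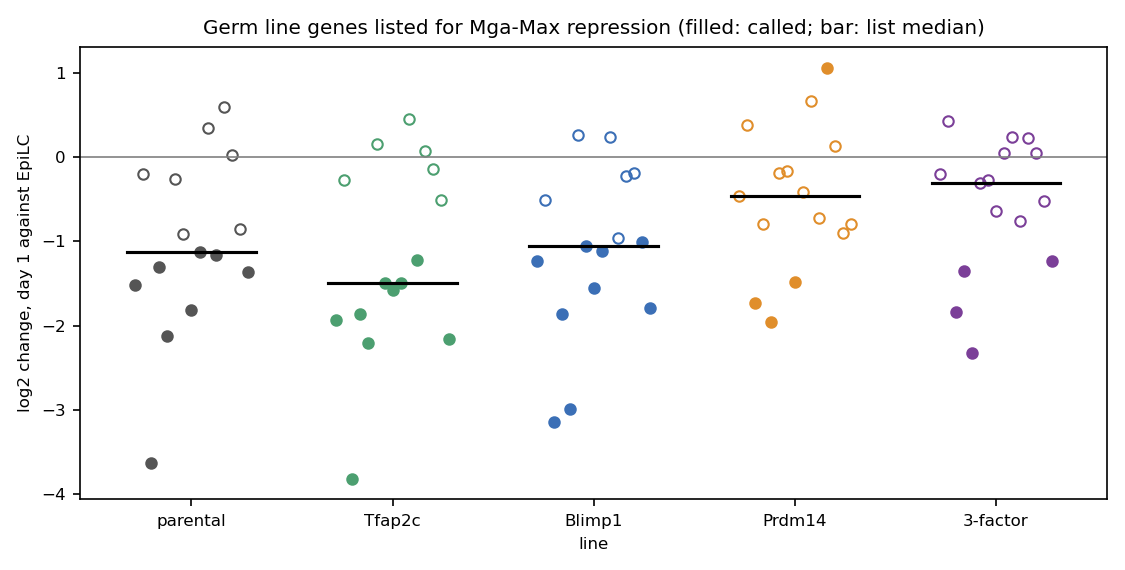
Log2 change from EpiLC to day 1 aggregate (y axis) of 15 germ line genes listed for repression through PRC1.6, by line (x axis), with 1 point a gene, filled where called, and a bar at the list median. The medians are -1.13 in the parental, -1.5 in the Tfap2c and -1.05 in the Blimp1 line, and -0.47 and -0.31 in the Prdm14 and 3-factor lines.

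Of 10 tested partners of Mga and Max in PRC1.6, Yaf2 was the 1 called, at -1.36 in the 3-factor line (calls downward, 3.85% of all genes). It was also lower in the Prdm14 line (-0.90, limma adjusted p 9.66e-06) and the Blimp1 line (-0.69, limma adjusted p 2.00e-04). Over the list, 3 of 10 passed upward (12.4% of all genes) and 2 downward (15%) in the 3-factor line. With Prdm14, 2 passed upward (8.84%) and 3 downward (15%). With Blimp1, 0 passed upward (8.42%) and 1 downward (8.79%). E2f6, which brings PRC1.6 to DNA, was lower by 0.56 in the Prdm14 line (limma adjusted p 2.77e-04) and 0.35 in the 3-factor line (limma adjusted p 0.00605). The partners that passed upward were higher by 0.21 to 0.26 in the Prdm14 line and by 0.29 to 0.47 in the 3-factor line. The list medians were -0.05 and 0.08 in these lines.

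Mxd4 and Mga, whose group means span 0.975 and 0.585, were left out of a search for similar genes, as members had to span at least 1. The genes most like each of the remaining members were sought among 3841 genes whose group means span at least 1 on the log2 scale, by Pearson correlation over the 10 group means, which share arrays and stage. For Myc they were Pla2g10 (r = 0.994), Hpdl (0.989), Dusp9 (0.974) and Platr10 (0.973), and the most opposed were Sesn3 (-0.987), Pld1 (-0.984), Greb1l (-0.982) and Auts2 (-0.982). Rest, which encodes a repressor of neuronal genes, was among the 4 most like Mycn (0.978), and the non-muscle myosin gene Myh10 was the most opposed (-0.989). Mycl had Ldha among its 4 most alike (0.982) and Prdm1 as the most opposed (-0.980). Max was most like Enoph1 (0.983) and most opposed to Gprc5b (-0.990). Mxi1 was most like Tsx (0.997) and most opposed to Eid1 (-0.995).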

How the data were processed

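Total RNA, extracted with RNeasy and labelled as biotin cRNA by a one-cycle protocol, was hybridised to 1 Affymetrix mouse array per sample, per the labels' protocols. The deposited values are on a log scale taken as log2 from their range of 0 to 13.83; of the authors' processing, the normalization, the software and the log base were not given in the sources used here. Probe sets were named from the platform annotation (34958 with 1 symbol, 932 with several, the rest with none). Each gene was represented by its brightest probe set and kept if 1 group mean reached 3.95, the 40th percentile. Differences were tested with limma 3.58.1 (R 4.3.3) on 10 group means over all 20 arrays, with Benjamini-Hochberg adjustment over 14010 genes. Calls combine an adjusted p below 0.05 with a log2 change of 1 or more. The fit was tested on simulated data. The number of arrays limits the precision. Named genes are the members, the largest called genes of each list and, for nucleolar genes, the first of the list; the sequences shown, and E2f6, Shmt2, Mnt and Mxd1, were picked with values in view. The members and lists were chosen with earlier results of these data known. Promoter windows come from RefSeq (GRCm38.p6, 6 of 7 members matched) and were searched on both strands. Alternatives covered scaling, filter, probe set choice, arrays fitted, a size-based test, the replicate block and leaving out each array.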

Additional observations from a re-analysis of the deposited data

Results flagged for a closer look

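In 5 cases the change from EpiLC to aggregate differed between a line and the parental line by a test of the difference itself (limma interaction, adjusted p under 0.05 and a log2 size of at least 1). For Myc, the Blimp1 line differed by -2.54 ± 0.16 (limma adjusted p 4.17e-06) and the Prdm14 line by 1.38 ± 0.16 (limma adjusted p 1.03e-04). For Mycn, the difference was 1.04 ± 0.10 in the 3-factor line (limma adjusted p 1.98e-05) and 1.00 ± 0.10 in the Prdm14 line (limma adjusted p 4.64e-05), the lines in which Mycn rose; leaving out 1 array took these to values between 0.94 and 0.99, under the size limit, without the second parental or first own EpiLC array in both lines and without the first parental or second own day 1 array in the Prdm14 line. For Mycl it was -1.09 ± 0.17 in the 3-factor line (limma adjusted p 7.05e-04), but -0.99 without the first 3-factor day 1 array and -0.74 with probe sets averaged, neither called. The background of called interactions was 6.95% of all genes in the 3-factor line, 2.4% in the Blimp1 line and 4.55% in the Prdm14 line.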

How the results depend on the processing

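Of 2212 member changes recomputed under 30 settings, 2174 stayed on their side of the threshold (73 of them with the other sign, uncalled both times and at most 0.56 in size), 19 fell below it, 18 rose past it and 1 was called only with another sign: the Mxd4 interaction of the 3-factor line, 0 at the brightest probe set, was -1.02 with probe sets averaged. The calls for Myc and Mycn against parental aggregates were kept under all settings run. Myc is read by a single probe set, so averaging probe sets left its values unchanged. With probe sets averaged, members called from EpiLC to aggregate numbered 1 in the parental and 2 in the 3-factor line. Centring arrays gave 2 in the Blimp1 line, 1 in the Tfap2c line and 1 called interaction in the Prdm14 line, and quantile normalization gave 2 in the Blimp1 line. Leaving out 1 array gave 1 to 2 members called in the 3-factor line against the parental, and 1 to 3 from EpiLC to aggregate in the Blimp1, 0 to 1 in the Prdm14 and 1 to 2 in the Tfap2c line; interactions called ran from 1 to 3 in the 3-factor and from 1 to 2 in the Prdm14 line. Nucleolar genes lower in Blimp1 aggregates numbered 8 with probe sets averaged, 9 with arrays centred, 0 on the compared arrays alone, 0 by the size-based test and 5 to 9 without 1 array; those higher in Prdm14 than Blimp1 aggregates 11 averaged, 6 on the compared arrays and 0 by the size-based test. Metabolic genes lower in the Blimp1 line numbered 1 on the compared arrays and 3 by the size-based test. Germ line genes called down in the parental line were 5 by that test, and those called up in the 3-factor line 1 by it and 1 with probe sets averaged. Same-numbered replicates did not deviate together (45 pairs, median r 0.02), and with the replicate block the members called stayed at 1 in the 3-factor, 1 in the Blimp1 and 2 in the Prdm14 line. All genes called between Blimp1 and parental aggregates were 364, but 142 on the compared arrays alone and 204 by the size-based test. Centring moved the median of all genes by at most 0.095.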

Other observations

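Mnt, which pairs with Max and represses Myc targets, was higher than in parental aggregates in the 3-factor line (0.34, limma adjusted p 0.00224), the Prdm14 line (0.35, limma adjusted p 0.00248) and the Blimp1 line (0.28, limma adjusted p 0.0147), each below a log2 change of 1. It was the 1 gene of 6 other Max and Mlx network genes to pass the test in those lines. The share of all genes passing upward was 12.4% in the 3-factor, 8.84% in the Prdm14 and 8.42% in the Blimp1 line. Mxd1, another Max partner, was at 0.70 in the Blimp1 line and did not pass (limma adjusted p 0.0539). Of 15 tested cofactors and regulators of Myc, 5 passed the test upward (12.4% of all genes) and 1 downward (15%) in the 3-factor line, 2 upward with Prdm14 (8.84%) and 2 downward with Blimp1 (8.79%), the last 2 counts near the share of all genes, and 0 were called in any of the 3. Their medians were 0.23, 0.04 and -0.03.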
